A study of Rattus norvegicus with 9 samples.

Results

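The cells described here are macrophages of the rat tibia that transcribe the 3 chains of complement C1q, the protein that recognises immune complexes and dying cells and starts the classical complement cascade. They numbered 720 of the 114232 cells that passed a base filter of at least 200 detected genes and at most 20% mitochondrial UMIs, which is 0.630% of all cells. A UMI is a molecular barcode that marks 1 captured RNA molecule, so a count of UMIs is a count of molecules. A cell was taken as a C1q macrophage when C1qa, C1qb and C1qc together had at least 10 of every 10000 of its UMIs, when it had at least 2000 UMIs, and when Cd163, Mrc1, Vsig4, Marco and Csf1r together had at least 2. The members were thus chosen by the UMIs of those 8 genes, whose levels below are descriptions and were not tested.

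All groups were Sprague-Dawley rats of 6 to 8 weeks, male by the methods of the study, and all carried the same injuries: a 3 mm circular osteotomy (a ring cut through the cortex) of the proximal tibia and a 4 mm full-thickness skin wound on the foot of the same side. TO is osteotomy alone, and TOE is osteotomy followed by radial extracorporeal shock waves (3 bar, 300 impulses, 5 Hz). These were given over the bone cut on day 2 and on day 4. Tissue of the day 2 TOE groups was taken before the day 4 session. Tissue of the osteotomy site was taken on day 2 at 0, 4 or 24 h, or on day 4 at 4 or 24 h, the hours being counted from the shock wave session in TOE, and droplet single-cell libraries were made. There was 1 library per group, the design text lists 9 rats for 9 samples, and the TO_2d_24h sample was not analysed here, which leaves 8 libraries and 3 TOE against TO pairs (2d_4h, 4d_4h and 4d_24h). No single pair could therefore be tested; shock waves were tested over the 3 pairs together, and intervals around single values are exact 95% intervals that cover counting error only.

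Resident macrophages of the bone marrow sit in the stroma and at the centre of erythroblastic islands, where they engulf the nuclei that maturing red cells expel and the cells that die. They break down haem with haem oxygenase, store the iron in ferritin or hand it back through ferroportin, and the transcription factor SPIC is known for its part in this iron-recycling programme. After a fracture, such macrophages and those that newly arrived monocytes become clear debris and secrete growth factors and chemokines.

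C1qa and C1qb, neighbours on chromosome 5, define the cells. Cd5l and Spic did not enter the rule but were higher in the members than in monocytes. Promoter sequences are shown for these 4 genes. Each is the 250 bases before the annotated start in RefSeq's GRCr8 table, 5′ to 3′ on the gene's strand; the count files used mRatBN7.2, so these coordinates are not those of the files. C1qa lies at chr5:154419934-154420183 and C1qb at chr5:154407828-154408077, both on the minus strand, Cd5l at chr2:175088665-175088914 on the plus strand and Spic at chr7:24964901-24965150 on the minus strand. Capitals mark GAGGAA, the core of the PU box read by SPI1, and TGCTGA, a half-site of the MAF recognition element, on either strand (TTCCTC and TCAGCA); the 2 motifs can overlap by their shared GA.
C1qa: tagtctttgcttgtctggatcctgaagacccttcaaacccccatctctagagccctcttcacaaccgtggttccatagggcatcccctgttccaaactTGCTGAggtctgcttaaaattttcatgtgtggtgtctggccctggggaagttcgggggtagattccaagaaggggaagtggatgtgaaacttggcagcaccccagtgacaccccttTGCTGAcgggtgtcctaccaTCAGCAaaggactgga
C1qb: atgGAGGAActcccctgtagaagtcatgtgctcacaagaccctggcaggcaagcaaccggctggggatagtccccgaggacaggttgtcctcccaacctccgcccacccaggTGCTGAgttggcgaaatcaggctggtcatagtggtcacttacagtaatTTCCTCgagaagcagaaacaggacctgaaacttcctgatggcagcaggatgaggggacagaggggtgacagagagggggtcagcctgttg
Cd5l: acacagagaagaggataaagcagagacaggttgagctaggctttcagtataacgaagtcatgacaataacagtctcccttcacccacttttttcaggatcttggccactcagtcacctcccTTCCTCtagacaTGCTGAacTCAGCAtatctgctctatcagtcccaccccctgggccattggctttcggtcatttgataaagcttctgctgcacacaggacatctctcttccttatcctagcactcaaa
Spic: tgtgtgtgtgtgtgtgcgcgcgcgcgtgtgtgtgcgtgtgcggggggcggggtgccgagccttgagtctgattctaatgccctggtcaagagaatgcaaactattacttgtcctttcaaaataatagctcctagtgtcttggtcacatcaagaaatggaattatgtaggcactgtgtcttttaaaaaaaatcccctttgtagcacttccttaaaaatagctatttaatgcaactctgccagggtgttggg
GAGGAA occurred in 23.3% and TGCTGA in 15.1% of 33469 promoters of the same length. C1qa had 0 matches to the first and 3 to the second, C1qb had 2 and 1, Cd5l had 1 and 2, and Spic had neither. A match is a match of letters only, and its absence says only that these letters are not in this window.

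The base filter kept 12329 to 16945 cells per library, and C1q macrophages numbered 88 in TO_2d_0h, 78 in TO_2d_4h, 114 in TO_4d_4h, 89 in TO_4d_24h, 73 in TOE_2d_4h, 154 in TOE_2d_24h, 112 in TOE_4d_4h and 12 in TOE_4d_24h. Their share of all cells was 0.606%, 0.509%, 0.895%, 0.631%, 0.431%, 1.07%, 0.808% and 0.0973% in the same order. TOE_4d_24h stood below the other 7 libraries, with an interval of 0.0503 to 0.170% against 0.507 to 0.776% in TO_4d_24h. The share in TOE was 0.846 times that in TO at 2d_4h (0.606 to 1.18), 0.903 times at 4d_4h (0.689 to 1.18) and 0.154 times at 4d_24h (0.0768 to 0.283), and only the last interval lies clear of 1. Shares follow the yield of every other cell type, and fewer macrophages and fewer macrophages recovered from the tissue cannot be told apart. The monocytes of the same library numbered 599, the fewest of the 8 libraries, in which 599 to 2234 were found.

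**Figure D1:**
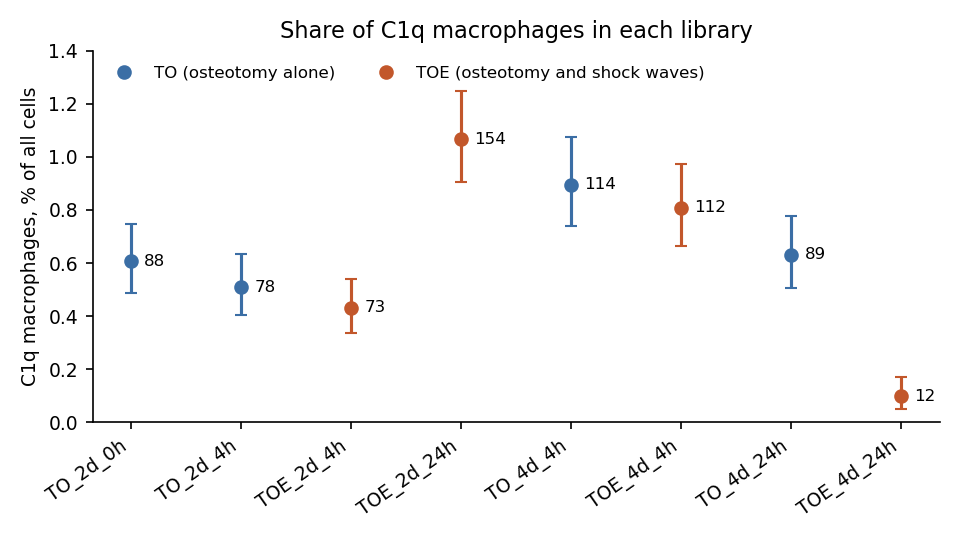
Share of C1q macrophages among all cells of each library (y axis, percent), with TO and TOE libraries in different colours and bars for the exact 95% interval. The shares lie between 0.431% and 1.07% in 7 libraries, and TOE_4d_24h lies below them at 0.0973%.

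The C1q macrophages held 9553319 UMIs in all, from 182755 in TOE_4d_24h to 2677168 in TOE_2d_24h, with a median per cell of 6831 to 14411 UMIs and 2647 to 3819.5 genes. No cell barcode of a member was shared between libraries, and library pairs shared 40 to 110 barcodes over all cells. Near the limits of the rule, 67 members had 10 to 15 C1q UMIs per 10000 and 105 other cells that met the remaining criteria had 5 to 10. There were 71 members with 2000 to 3000 UMIs, against 119 cells left out with 1000 to 2000, and 48 members had exactly 2 receptor UMIs, against 75 cells left out with fewer. In TOE_4d_24h, 1 member held 38.7% of the UMIs of all 12 members, while the largest member of any other library held 2.47 to 6.18%. For many, but not all, of the genes compared at 4d_24h, the cells that carry the value in that library are given.

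The genes that define these cells were present, with exceptions among the markers. Levels below are CPM, the usual scaled count, which is the UMIs of a gene divided by all UMIs of the summed members of a library, on a scale where 100 CPM is 1 UMI in 10000. C1qa ranged from 2275 CPM in TO_4d_4h through a median of 3264 to 4874 in TO_4d_24h, and C1qb and C1qc had medians of 2337 and 1852. B cells, which do not make C1q, held 0.0283 to 0.214 C1q UMIs per 10000, and 1.54 to 13.8% of them had any such UMI. These B cells were chosen by Cd79a and Cd79b UMIs and by having under 10 C1q UMIs per 10000. Cells with more C1q were thus left out beforehand. Mrc1, the mannose receptor, ranged from 274 to 688 CPM with a median of 526, and Cd163, the receptor for haptoglobin-haemoglobin complexes, from 152 to 512 with a median of 292. After each cell was thinned to 2000 UMIs, C1qa was found in 94.3% of members, C1qb in 90.0%, C1qc in 82.5%, Mrc1 in 59.9% and Cd163 in 37.2%; without thinning the shares were 99.4%, 99.2%, 98.2%, 90.3% and 51.9%. Vsig4, a receptor for complement C3 fragments on tissue-resident macrophages, had 88 UMIs in 19 members and was at 0 in TOE_4d_24h. Marco, a scavenger receptor, had 0 UMIs in all cells of the 8 libraries that passed the base filter, and Clec4f, a marker of liver macrophages, had 0 in the members. After the same thinning, Cd5l and Spic, which did not enter the rule, were found in 17.4% and 27.1% of members.

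The members were not uniform. Clustering of the members alone gave 7 groups, which are described by their leading genes and were not tested, since the same values made them. The 204 cells of cluster 1 (28.3% of members) were led by Adgrl3, Gpd1, Hpgds and Slc10a6 and also by Spic, at 511 CPM against 67.2 in the other members. The 104 cells of cluster 2 (14.4%) were led by Dnase1l3, a secreted DNase, at 1221 CPM against 95.9, by Fcna, a ficolin of the lectin pathway, at 7071 against 790, and by Cfd and Cfp, factors of the alternative complement pathway. Cd5l, a secreted scavenger protein, and Vcam1, an adhesion molecule for erythroblasts and lymphocytes, were also among the 10 leading genes of cluster 2, at 776 against 113 CPM and 1380 against 228. The 155 cells of cluster 6 (21.5%) were led by Pid1, Rbpj, Cd74 (4171 against 1444 CPM), Lyz2 (12217 against 4444) and Tgfbi. Cluster 7 was 7 cells of TO_4d_4h alone, led by Dgki, Tgfb2 and Il19.

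The other 3 clusters, 250 members in all, carried RNA of other lineages. Cluster 3 (56 cells, a median of 26357 UMIs) had 6 erythroid markers and the osteoclast markers Ctsk and Car2 among its 10 leading genes. Cluster 4 (117 cells) had the neutrophil markers Camp, S100a8, S100a9 and Lcn2, with S100a9 at 11827 against 1218 CPM. Cluster 5 (77 cells) had the B-cell markers Ebf1, Cd79a and Pax5 and held 11 of the 21 members with a doublet score of at least 0.25 from Scrublet, which simulates pairs of cells in 1 droplet. Over all members, 290 had at least 5 of every 1000 UMIs in marker genes of other lineages. The median member of a library had 3.25 to 5.01, so that limit lies near the median. Other cell types held such RNA too. Neutrophil markers summed to 1937 to 12868 CPM in members, 7119 to 14812 in monocytes and 12631 to 33422 in B cells. Erythroid markers summed to 181 to 20835, 52.8 to 2238 and 446 to 9168 CPM in the same order. How that RNA came to be in the members was not tested, and the counts over all genes below are given with and without those 290 members.

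**Figure D2:**
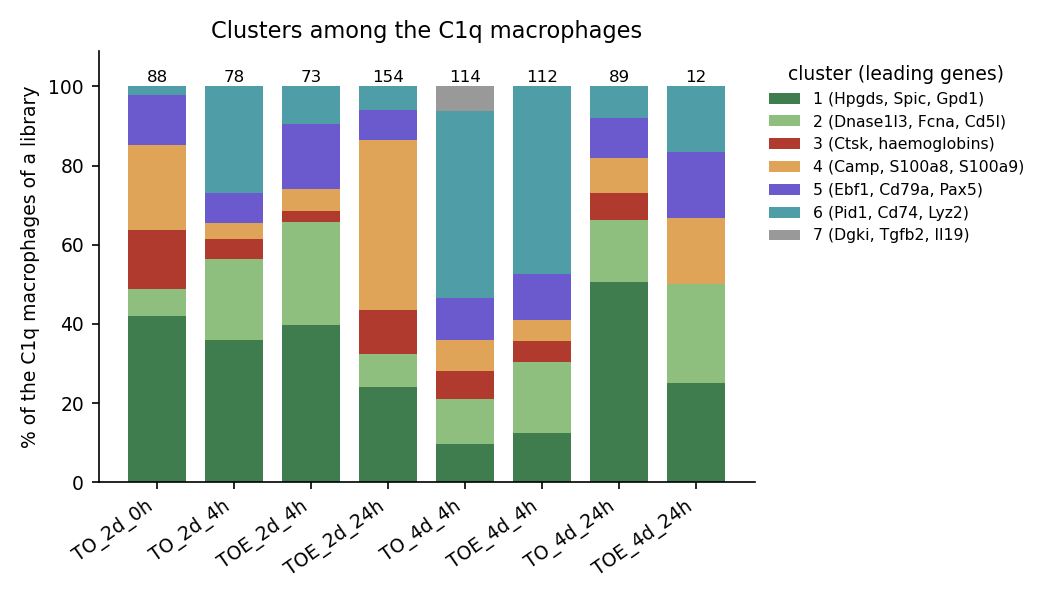
Make-up of the C1q macrophages of each library by cluster (stacked bars, percent of the members of the library), with the leading genes in the legend. Cluster 6 holds 47.4% and 47.3% of the members in the day 4, 4 h libraries and cluster 4 holds 42.9% in TOE_2d_24h.

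The clusters were spread unevenly over the libraries. Cluster 1 made up 9.65% of members in TO_4d_4h and 12.5% in TOE_4d_4h, and 24.0 to 50.6% in the other 6 libraries. Cluster 6 made up 47.4% and 47.3% of members in those 2 libraries, 26.9% in TO_2d_4h and 9.59% in TOE_2d_4h. Cluster 2 ranged from 6.82% in TO_2d_0h to 26.0% in TOE_2d_4h, and 66 of the 154 members of TOE_2d_24h were in cluster 4. The day 4, 4 h pair thus had a like make-up in clusters 1 and 6 with and without shock waves.

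To describe what sets these cells apart, their summed UMIs were compared within each library with those of 10477 monocytes (under 10 C1q UMIs per 10000, Csf1r detected, and at least 2 UMIs of Vcan, Ccr2 and F13a1) and of 98 conventional dendritic cells. The 8 libraries served as replicates, although they came from 8 different conditions, and edgeR's quasi-likelihood test was used with Benjamini-Hochberg adjustment over all genes. Genes of the rules for the cell types were left out. Against monocytes, 2486 of 10538 genes rose (23.6%) and 2328 fell (22.1%), and the median log2 difference of all genes was -0.01. Without the 290 members rich in RNA of other lineages 2141 of 9319 rose and 2148 fell. Monocytes and dendritic cells were not filtered in this way, so that setting lowers such RNA on the side of the members only. Values below are mean CPM ± SD over the 8 libraries, and log2 differences carry their standard error (SE). Where a gene list below had 0 genes lower than in monocytes by edgeR, DESeq2 also called 0, and at an unadjusted p under 0.05 there were 2 for haem and iron and 0 for each of the others.

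The complement genes other than C1q moved both ways, with 6 of 14 tested genes higher and 4 lower (median log2 difference 0.00). C2, the classical-pathway protease, ranged from 126 to 198 CPM in the members and from 19.1 to 56.0 in monocytes, with no overlap and a log2 difference of 2.12 ± 0.16 (adjusted p = 3.6e-11). Cfp, which stabilises the convertase of the alternative pathway, rose by 1.75 ± 0.19. C3, the central component, was lower, with a median of 12.1 CPM in members and 51.1 in monocytes (log2 difference -1.78 ± 0.26, adjusted p = 3.3e-06). C3 stood above monocytes in 1 library, TOE_4d_24h, at 71.1 CPM, which were 13 UMIs in 2 cells with 76.9% of them in 1 cell.

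Scavenger and Fc receptors rose in 16 of 22 genes tested and fell in 3 (median 1.81). Folr2, a folate receptor of resident macrophages, had 227 to 403 CPM in the members and 2.34 to 19.3 in monocytes (log2 difference 4.76 ± 0.27, adjusted p = 9.4e-14). Stab1, a receptor for modified lipoproteins and apoptotic cells, rose by 5.71 ± 0.21, and Siglec1, the sialoadhesin of marrow and lymph node macrophages, by 4.70 ± 0.33. Both were higher in the members in all 8 libraries. Clec7a, Clec12a and Fcgr2b were the 3 that fell, and Cd14 did not pass the test at -0.13 ± 0.21 (adjusted p = 0.66).

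Cd5l had the largest rise among genes with at least 100 UMIs. It had 44.8 CPM in TO_4d_4h, a median of 136 and 311 CPM in TO_2d_4h, against 0 to 0.499 in monocytes, and the means were 142 ± 80.5 and 0.195 (log2 difference 9.20 ± 0.34, adjusted p = 5.6e-17). The lowest library of the members was thus far above the highest of the monocytes. Other genes among the 15 with the largest rise were Dnase1l3 (8.70 ± 0.35), the organic anion carrier Slco2b1 (7.98 ± 0.33), the glucagon receptor Gcgr (7.93 ± 0.34), Vcam1 (7.81 ± 0.46), Ms4a4a (7.32 ± 0.27), the prostaglandin D synthase Hpgds (6.97 ± 0.31) and the receptor kinase Axl (6.58 ± 0.44). Each was higher in the members in all 8 libraries.

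Efferocytosis, the engulfment of dying cells, was represented by 23 tested genes, of which 15 rose and 1 fell (median 1.11). Mertk, the receptor that binds dying cells through bridging proteins, had 65.4 to 224 CPM in the members and 1.08 to 8.05 in monocytes (log2 difference 5.32 ± 0.31, adjusted p = 1.7e-13). Its bridging ligand Gas6 rose by 3.97 ± 0.22, and the related receptor Axl had 125 to 446 CPM against 0.783 to 9.52. Trem2, a lipid-sensing receptor, had means of 432 ± 134 and 25.4 CPM (4.18 ± 0.18, adjusted p = 3.9e-16). Itgb5, a subunit of the integrin for milk fat globule protein, rose by 5.43 ± 0.28, and Rac1, the GTPase of the engulfment cup, was the gene that fell (-0.34 ± 0.12, adjusted p = 0.017). Receptors, ligand and integrin were each higher in all 8 libraries. Timd4, another receptor for dying cells, had 3 UMIs in the members and was not tested.

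Among genes of haem and iron handling, 14 of 24 tested rose and 0 fell (median 0.85). Hmox1, haem oxygenase, had 1500 ± 794 CPM in the members and 118 ± 95.7 in monocytes (log2 difference 3.86 ± 0.28, adjusted p = 1.5e-11). Slc40a1, which encodes ferroportin, the iron exporter, had 121 to 450 CPM in the members and 2.35 to 6.09 in monocytes (5.96 ± 0.24, adjusted p = 1.6e-16). Spic had 187 ± 88.6 CPM against 2.20 (6.28 ± 0.24, adjusted p = 6.2e-14). The haem transporter Slc48a1, biliverdin reductase Blvrb and the ferritin receptor for autophagy Ncoa4 rose by 2.95 ± 0.16, 2.29 ± 0.14 and 2.51 ± 0.17. Fth1, the heavy chain of ferritin, had 15129 ± 3747 against 4784 ± 1579 CPM (1.67 ± 0.14) and Ftl1, the light chain, rose by 1.31 ± 0.13. Haem transport and breakdown and iron storage and export were thus each represented among the genes that rose. Nfe2l2 and Bach1, the activator and the repressor of Hmox1, did not pass the test, at 0.15 ± 0.14 (adjusted p = 0.39) for Nfe2l2 and 0.04 for Bach1.

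Of the list of erythroblastic island genes, 8 of 11 tested rose and 0 fell (median 1.87), Vcam1 with 326 ± 160 against 1.73 ± 2.29 CPM among them. Erythroid markers themselves also rose, in 9 of 11 genes tested, and their summed level was 181 to 20835 CPM in the members and 52.8 to 2238 in monocytes. Without the 290 members rich in RNA of other lineages, island genes rose in 8 of 10 tested, haem and iron genes in 14 of 24 with 1 lower, and erythroid markers fell in 9 of 9. The erythroid markers were used to remove those cells, so the last count describes the removal only.

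Lysosomal genes rose in 25 of 32 tested and fell in 3 (median 1.43). Lgmn, the asparaginyl endopeptidase legumain, had 549 to 1737 CPM in the members and 40.0 to 134 in monocytes (3.71 ± 0.19, adjusted p = 1.8e-14). The cathepsins Ctsd and Ctsb rose by 2.11 ± 0.17 and 1.99 ± 0.13, the cholesterol carrier Npc2 by 2.00 ± 0.16 and the tetraspanin Cd63 by 2.31 ± 0.21. Lyz2, the lysozyme abundant in monocytes and granulocytes, fell in all 8 libraries, with 5680 ± 3278 against 20205 ± 3897 CPM (-2.01 ± 0.25, adjusted p = 2.6e-07), as did Man2b1, while Npc1 fell with 1 library the other way.

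Lipid handling had 19 of 22 genes higher and 1 lower (median 2.48). Apoe, the apolipoprotein that macrophages secrete for cholesterol efflux, had 5624 CPM in TOE_2d_4h, a median of 10944 and 16957 in TOE_2d_24h, against 51.7 to 958 in monocytes. Its means were 11047 ± 3849 and 419 ± 355 (5.27 ± 0.39, adjusted p = 1.8e-11). The fatty-acid carrier Fabp4, the phospholipid transfer protein Pltp and the nuclear receptors Pparg and Nr1h3 (liver X receptor alpha) rose by 4.29 ± 0.37, 5.39 ± 0.26, 3.78 ± 0.21 and 2.58 ± 0.23, and the cholesterol efflux pump Abca1 by 2.54 ± 0.22. Soat1, which esterifies cholesterol, fell by 0.80 ± 0.16 on the log2 scale. Carriers, transfer protein, pump and nuclear receptors thus stood on one side of the comparison and the esterifying enzyme on the other.

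**Figure D3:**
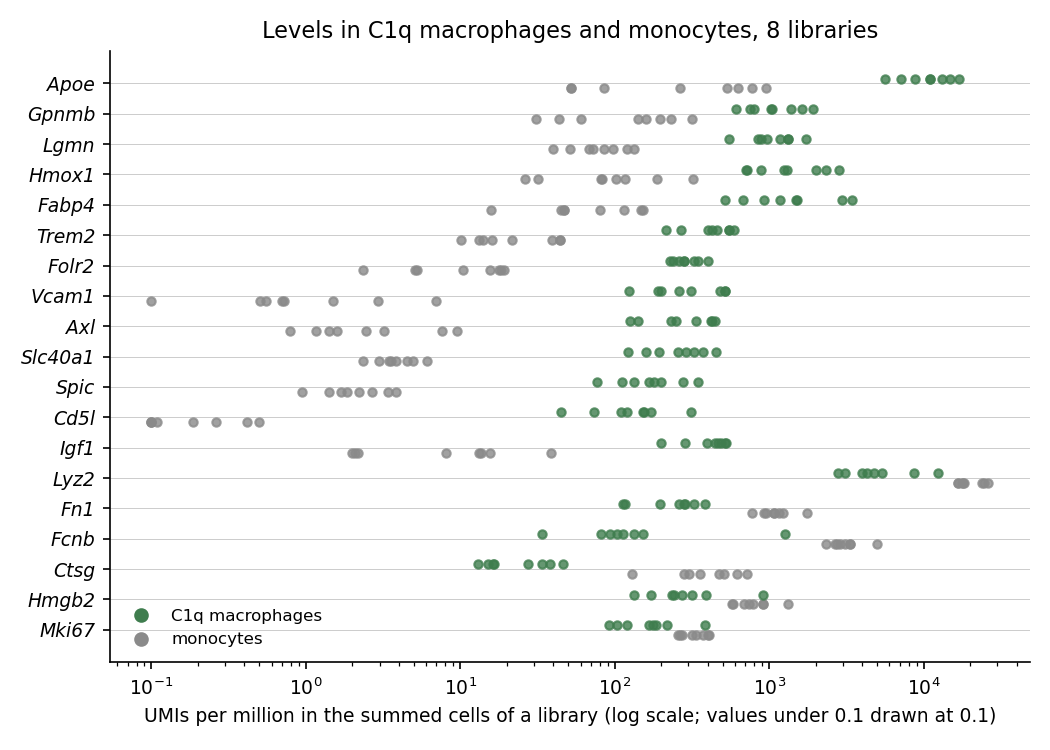
Level of selected genes in the C1q macrophages (green) and the monocytes (grey) of the 8 libraries, in CPM on a log axis, 1 point per library and values under 0.1 drawn at 0.1. Cd5l, Spic, Slc40a1, Vcam1 and Apoe do not overlap between the cell types, and Lyz2 is lower in the C1q macrophages in every library.

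The list of classical activation was split, with 10 of 31 genes higher and 10 lower (median -0.13), and that of alternative activation had 6 of 13 higher and 0 lower (0.43). Nos2, inducible nitric oxide synthase, was lower at 85.7 ± 74.8 against 181 ± 108 CPM (-1.07 ± 0.31, adjusted p = 5.9e-03), and Il1b, Ccl3, Cd80, Ptgs2, Acod1 and Saa3 also fell. Ccl4, a chemokine for monocytes and T cells, Ccl12, Cxcl16, Cxcl10, Il18 and Cd86 rose, with log2 differences of 4.16 ± 0.43, 3.08 ± 0.36, 2.43 ± 0.18, 2.28 ± 0.23, 2.27 ± 0.18 and 2.25 ± 0.25. Arg1, arginase, did not pass the test (35.5 against 26.8 CPM, 0.26 ± 0.30, adjusted p = 0.52), and Il10, an anti-inflammatory cytokine, rose by 1.39 ± 0.28 with 6 libraries higher.

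Antigen presentation rose in 9 of 16 genes and fell in 0 (median 0.88). Cd74, the invariant chain, had 2103 against 443 CPM (2.18 ± 0.15, adjusted p = 3.2e-12), and the class II gene RT1-Da rose by 2.22 ± 0.16. The class I light chain B2m rose by 0.93 ± 0.12. Markers of B cells and of dendritic cells, which also express class II genes, rose in 4 of 7 and 4 of 8 genes, with 0 and 2 lower, and summed to 610 to 1959 and 829 to 1553 CPM in the members against 575 to 911 and 496 to 892 in monocytes. Without the 290 members rich in RNA of other lineages, antigen presentation rose in 9 of 15 genes and fell in 0 (median 1.02), dendritic-cell markers rose in 4 of 7, and B-cell markers, which were used to remove those cells, fell in 5 of 5. Interferon-response genes rose in 16 of 21 tested and fell in 0 (median 1.55), with Ifi27 at 1.60 ± 0.18, Oasl at 2.42 ± 0.23 and the regulator Irf7 at 1.70 ± 0.18. Over the alternative settings, the number of interferon-response genes that rose ranged from 5 to 19.

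Secreted growth and matrix factors rose in 19 of 34 genes tested and fell in 6 (median 1.17). Igf1, an anabolic factor for bone and muscle, had 200 to 526 CPM in the members and 1.99 to 38.4 in monocytes (5.53 ± 0.40, adjusted p = 1.4e-11). Pdgfc, a platelet-derived growth factor, Gdf15, a stress-induced member of the TGF-beta family, the chemokine Pf4 and the urokinase gene Plau rose by 5.02 ± 0.39, 4.95 ± 0.31, 3.10 ± 0.23 and 3.59 ± 0.27. Fibronectin (Fn1) fell, with 245 against 1118 CPM (-2.29 ± 0.17, adjusted p = 2.2e-11), as did thrombospondin 1 (Thbs1) at -2.14 ± 0.42, Timp1 and Mmp13. Vegfa, the angiogenic factor, did not pass the test at -0.27 ± 0.25 (adjusted p = 0.39). The summed level of mesenchymal markers was 151 to 1254 CPM in the members and 263 to 10500 in monocytes, with 9 of 10 lower in the members, and its part in the matrix genes was not tested.

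Among macrophage transcription factors, 13 of 30 rose and 4 fell (median 0.26). Maf had 376 ± 96.9 against 37.2 CPM (3.33 ± 0.19, adjusted p = 8.2e-14). Spi1, the pioneer factor of myeloid cells, had 269 against 290 CPM and did not pass the test (-0.12 ± 0.11, adjusted p = 0.42). Irf5, Zeb2, Hif1a and Bhlhe40 were the 4 that fell. Immediate-early genes rose in 17 of 28 and fell in 2, with Egr1 at 1.93 ± 0.24 and Atf3 at 1.82 ± 0.24, and heat-shock genes rose in 5 of 14 and fell in 0. Small vesicle markers rose in 5 of 14 and fell in 4 (median -0.03), Cd81 by 1.87 ± 0.16 among the former and Rab27a, the GTPase of vesicle release, at -1.94 ± 0.19 among the latter.

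Cell-cycle genes fell in 14 of 14 tested (median -1.16), with Hmgb2 at -1.49 ± 0.19 and Mki67, the proliferation antigen, at 180 against 328 CPM (-1.01 ± 0.22). Mki67 was above monocytes in 1 library, TOE_4d_24h, at 383 CPM, where 98.6% of its UMIs were in 1 cell. The 15 genes with the largest fall included granule and early myeloid genes. Fcnb, a ficolin of neutrophil granules, had 33.6 to 152 CPM in 7 libraries and 1269 in TOE_4d_24h, with 98.3% of the latter in 1 cell, against 2326 to 4969 in monocytes (-4.54 ± 0.38). Rnase2, an eosinophil-type ribonuclease, and the protease Ctsg fell by 4.16 ± 0.23 and 3.84 ± 0.27 on the log2 scale. Elane and Mpo, the neutrophil primary granule genes, were also lower, at -3.57 ± 0.22 and -3.44 ± 0.24.

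Against the 98 dendritic cells, with 3 to 21 cells per library, 2162 of 10527 genes rose (20.5%) and 1509 fell (14.3%), with a median of 0.12. Without the 290 members 1897 of 9308 rose and 1567 fell, the dendritic cells again being unfiltered. Lists whose genes mostly rose included lipid handling (19 of 22 genes), lysosome (28 of 32), scavenger and Fc receptors (18 of 22), haem and iron (15 of 24), erythroblastic island (9 of 11), and growth and matrix factors (21 of 34). The 2 comparisons share the C1q macrophages and are not independent of each other. Other lists had a smaller part of their genes higher. Efferocytosis had 11 of 23 higher and 2 lower, and interferon response 9 of 21 higher and 2 lower (medians 0.97 and 0.99). Classical activation had 12 of 31 higher and 5 lower, and immediate-early genes 11 of 28 higher and 7 lower (medians 0.50 and 0.24). Antigen presentation went the other way, with 2 of 11 genes higher and 6 lower (median -0.78), class II genes of the dendritic rule being left out. Ciita, the class II transactivator, was lower at -3.39 ± 0.41 and RT1-DOa, a class II chaperone, at -5.94. Batf3, a transcription factor of cross-presenting dendritic cells, was lower at -4.94 ± 0.40, and Irf8 at -1.94 ± 0.22.

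All 15 genes with the largest rise over dendritic cells had 0 UMIs there, so their folds are lower bounds set by 3 UMIs over the group. Spic was at least 79.8-fold higher, the glutamate transporter Slc1a3 at least 63.5-fold, the glycerol-3-phosphate dehydrogenase Gpd1 at least 54.3-fold and Slco2b1 at least 41.6-fold. Lower in the C1q macrophages were lymphocyte-type receptors, Klri1 at -8.51 ± 0.64, Slamf7 at -6.45 and Cd226 at -7.68. The erythroid and B-cell markers rose in 7 of 11 and 3 of 5 genes in this comparison. The dendritic rule left out cells with a Cd79a or Cd79b UMI, so B-cell RNA was limited beforehand on the dendritic side only. With 3 to 21 dendritic cells per library the bounds rest on few cells.

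Across the 8 libraries the members' levels of iron genes varied. Hmox1 had 1297 CPM in TO_2d_4h, 1996 in TO_4d_4h, 2831 in TOE_2d_4h and 2319 in TOE_4d_4h. In the other libraries it had 702 in TO_2d_0h, 1253 in TO_4d_24h, 721 in TOE_2d_24h and 881 in TOE_4d_24h (11 cells). The 4 libraries taken at 4 h were thus above the 4 taken at 0 or 24 h, with TO_2d_4h and TO_4d_24h close together. Spic had a median of 174 CPM, with 76.8 in TOE_4d_4h and 111 in TO_4d_4h at the low end and 347 in TO_4d_24h at the top. Slc40a1 was lowest in TOE_2d_24h (121 CPM) and highest in TO_2d_4h (450 CPM).

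Lipid, lysozyme and chemokine genes also varied from library to library. Fabp4 ranged from 519 CPM in TO_4d_4h to 3420 in TO_4d_24h, with a median of 1327, and Apoe from 5624 to 16957. Lyz2 had 8669 and 12434 CPM in the day 4, 4 h libraries and 2792 to 5395 in the other 6. The neutrophil chemokine Cxcl1 had 1946 CPM in TO_2d_0h and 115 in TOE_4d_24h, where 1 cell held all 21 UMIs, with a median of 768. The genes of classical activation summed to 11792 CPM in TO_2d_0h, the baseline library, to 4447 to 8625 in the next 6 and to 1932 in TOE_4d_24h, against 1492 to 8305 CPM over the monocytes of the 8 libraries.

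**Figure D4:**
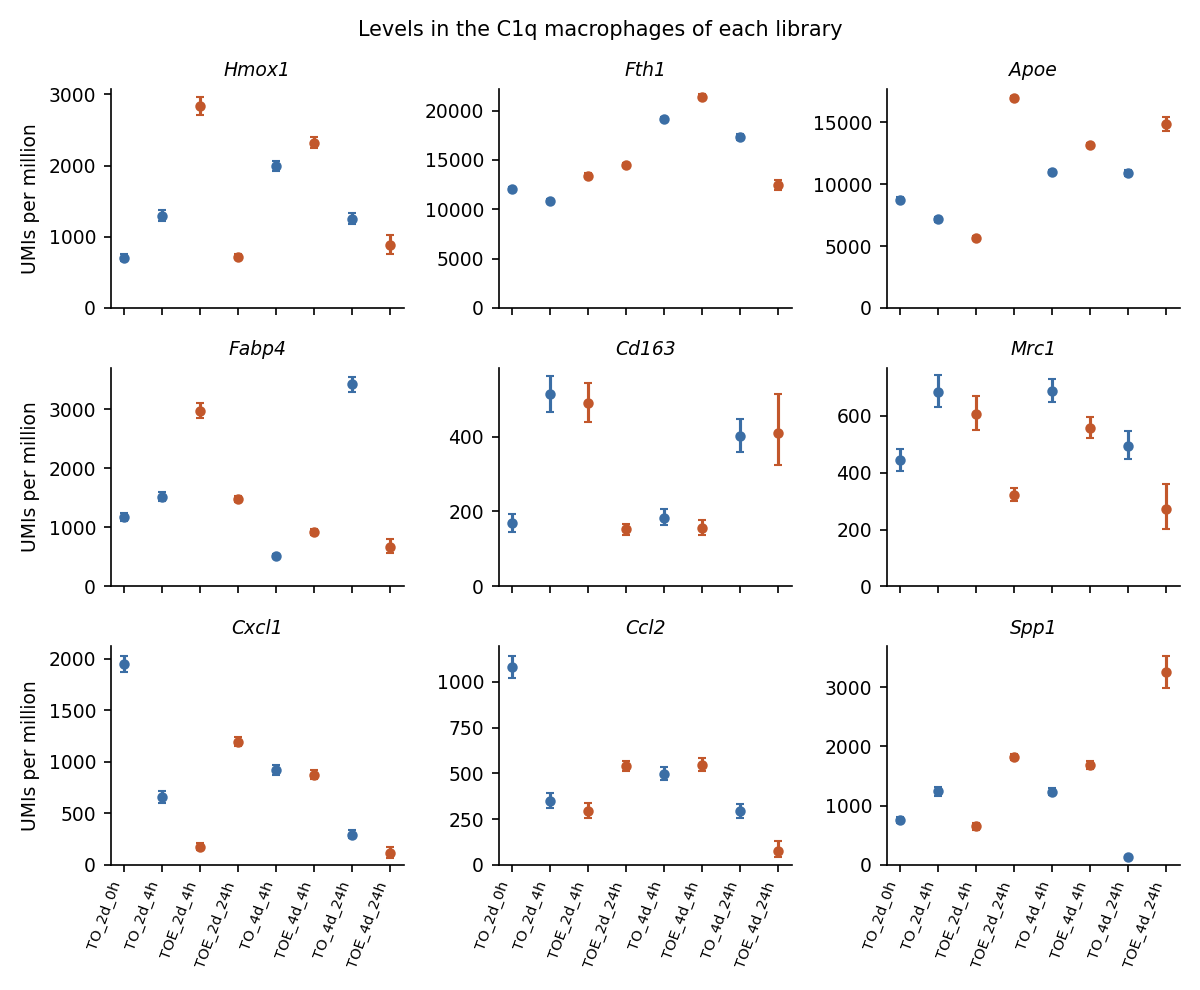
Levels of selected genes in the C1q macrophages of each library (y axes, CPM from 0, 1 panel per gene), with exact 95% Poisson intervals for counting error. Hmox1 is at 1297 CPM or above in the 4 libraries taken at 4 h and at 1253 or below in the others.

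In the day 2, 4 h pair (78 TO and 73 TOE members), 148 of 5286 genes with at least 50 UMIs over the pair were more than 2-fold higher in TOE (2.8%) and 148 more than 2-fold lower (2.8%). Without the members rich in RNA of other lineages the counts were 144 and 178 of 4140 genes. RT1-A3, a class I gene, had 66.4 CPM in TO and 359 in TOE, a log2 ratio of 2.42 with a counting interval of 2.01 to 2.88, in 33 and 66 cells. RT1-A1 went from 14.0 to 61.3 CPM (2.08). The class I genes of the rat are close copies whose reads can be split between them, and the log2 ratio of RT1-A3 was also 2.59 in monocytes and 0.74 in B cells of the same pair. Antigen presentation had 4 of 10 measured genes past 2-fold higher and 0 lower (median 0.68), with Cd74 at 1564 and 3325 CPM and RT1-Da at a log2 ratio of 1.13. B-cell markers, whose cells also express class II genes, moved with it, with 2 of 4 measured genes higher and a sum of 819 CPM in TO and 1658 in TOE, and cluster 5 held 7.69% and 16.4% of the members. Without the members rich in RNA of other lineages, antigen presentation again had 4 of 10 genes higher and 0 lower (median 0.72), and B-cell markers, which were used to remove those cells, had 0 of 2 higher.

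Haem and iron genes had in this pair 3 of 21 higher and 1 lower (median -0.06), with Hmox1 at a log2 ratio of 1.13 (1.02 to 1.23) where monocytes had 0.51. Lipid handling had 3 of 20 higher and 0 lower, with Nr1h3 at 1.42 and Gpnmb, a glycoprotein of lipid-laden macrophages, at 1.04. Classical activation had 1 of 22 higher and 6 lower (median -0.24), with Cxcl1 from 659 in TO to 175 CPM in TOE (-1.91). Immediate-early genes had 0 of 25 higher and 5 lower, with Nr4a1 at -1.70 and Nr4a3 at -1.80. Without the members rich in RNA of other lineages, classical activation had 2 of 20 higher and 3 lower with a median of 0.07, haem and iron 2 of 19 higher and 1 lower with a median of 0.12, lipid handling 5 of 19 higher and 1 lower, and immediate-early genes 0 of 24 higher and 4 lower. Cd5l was lower, from 311 to 120 CPM (-1.37). Scavenger and Fc receptors had 1 of 19 higher and 3 lower, and growth and matrix factors 2 of 22 higher and 3 lower. Neutrophil markers had 5 of 7 higher and 1 lower, and without the members rich in RNA of other lineages 0 of 6 were past 2-fold in either direction. Neutrophil markers were used to remove those cells, so the last count describes the removal only. Of the 10 genes with the largest rise, S100a9 had 84.2% and Camp 91.1% of its UMIs in 1 cell.

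In the day 4, 4 h pair (114 TO and 112 TOE members), 79 of 7244 genes were past 2-fold higher (1.09%) and 125 lower (1.73%). Without the members rich in RNA of other lineages the counts were 61 and 168 of 5686 genes. Complement, haem and iron, efferocytosis, macrophage transcription factor, heat-shock and small vesicle genes had 0 members past 2-fold in either direction, of 12, 23, 20, 30, 14 and 12 measured; without the members rich in RNA of other lineages, 2 of 23 haem and iron genes and 1 of 14 heat-shock genes were higher. Cell-cycle genes had 2 of 8 lower and 0 higher (median -0.50), and 5 of 6 lower without those members (-1.46). Interferon-response genes had 1 of 11 higher and 3 lower (-0.44), and 1 of 8 higher and 3 lower without them (-0.71). Lipid handling had 2 of 22 higher and 0 lower, and 4 of 22 higher without them. RT1-A3 was higher again, at 92.9 and 302 CPM (1.70, 1.43 to 1.98). RT1-Bb, a class II chain, had 9.61 CPM in TO and 76.2 in TOE (2.95, 2.21 to 3.87) in 9 and 20 cells, with 2.62 in monocytes and 1.80 in B cells. Antigen presentation, the list that holds it, had 1 of 13 higher and 0 lower (median 0.17). Cd5l was higher in TOE here, at 154 against 44.8 CPM (1.78). Apoc1, an apolipoprotein, went from 41.6 to 168 CPM (2.00), with 52.3% and 41.9% of its UMIs in 1 cell. Arg1 went from 49 to 122 CPM (1.30), with 43% of the latter in 1 cell, and Tgm2 from 15.4 to 80.8 CPM with 56% in 1 cell. Their list, alternative activation, had 2 of 10 higher and 0 lower (median 0.01) and summed to 1484 CPM in TO and 1404 in TOE. Neutrophil markers, which were used to remove the members rich in RNA of other lineages, had 0 of 11 higher and 6 lower (median -1.0). After that removal they had 1 of 7 higher and 0 lower.

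In the day 4, 24 h pair (89 TO and 12 TOE members), 242 of 3671 genes were past 2-fold higher (6.59%) and 507 lower (13.8%). Without the members rich in RNA of other lineages, 125 of 2283 genes were higher and 399 lower. That setting left 56 TO and 6 TOE members in this pair, so all its values here rest on few cells. With totals scaled by TMM the counts were 112 higher and 781 lower, and the median of all genes moved from 0.02 to -0.31. All 10 genes with the largest rise had over 50% of their UMIs in 1 cell. Spp1, osteopontin, had 131 CPM in TO and 3250 in TOE (4.62), with 89% of the latter in 1 of 2 cells, and Fcnb was carried by 1 cell. Without the largest member of each library, 3 of the 10 genes could still be measured and 2 were past 2-fold. Cell-cycle genes had 5 of 6 higher (median 1.86), where 1 cell held 98.6%, 95.8% and 93.4% of the TOE UMIs of Mki67, Top2a and Hmgb2, and 0 of 3 higher and 2 lower without the members rich in RNA of other lineages. Monocyte markers had 3 of 5 higher (median 1.72, from a sum of 1177 CPM to 2813) and 1 of 4 without those members. B-cell markers, which were used to remove those members, had 3 of 4 higher (from 906 to 1959 CPM) and 0 of 1 without them.

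Genes lower in the 12 TOE members included haemoglobins and inflammatory genes. Of the 10 genes with the largest fall, 8 had over 50% of their TO UMIs in 1 cell. Erythroid markers had 9 of 9 lower and summed to 20835 CPM in TO and 181 in TOE. Hba-a1, an alpha globin, had 11068 CPM in TO and 93.0 in 4 cells of TOE (-6.88), beside -6.23 in monocytes and -5.56 in B cells. Of the TO UMIs, 78.5% were in 1 cell, and the ratio was -4.03 without cells of high doublet score and -4.26 without the members rich in RNA of other lineages. Hba-a1 was itself among the markers used to remove those members. Classical activation had 0 of 19 higher and 14 lower (median -1.59), with Cxcl2 from 1387 to 142 CPM (-3.28), the latter 26 UMIs in 1 cell, and Il1b at -2.81 with 6 UMIs in 4 cells, where monocytes had -2.75. Alternative activation had 3 of 3 measured genes lower (median -1.47). Immediate-early genes had 1 of 22 higher and 13 lower (median -1.28) and transcription factors 0 of 23 higher and 8 lower (median -0.63). Without the members rich in RNA of other lineages, 6 TOE members were left. In that setting classical activation had 9 of 17 lower (median -1.12), immediate-early genes 7 of 20 (-0.87), transcription factors 8 of 19 (-0.72) and alternative activation 3 of 3 (-1.41), with 0 higher in each. Fabp4 went from 3420 to 673 CPM in 8 cells (-2.34) and Gdf15 from 352 to 10.9 (-4.89, interval -8.06 to -3.14, with 2 UMIs in 1 cell in TOE). Cd36, a scavenger receptor for lipids, had 129 CPM in 35 TO cells and 0 UMIs in the 12 TOE cells, which allows up to 16.4 CPM. Complement genes had 0 of 8 higher and 2 lower, and lysosomal genes 1 of 30 higher and 1 lower. Lipid handling had 2 of 19 higher and 2 lower, and 6 of 15 higher and 1 lower without the members rich in RNA of other lineages. The median mitochondrial percent of members was 6.15 in TO_4d_24h, the highest of the libraries, and 4.77 in TOE_4d_24h. Mitochondrial transcripts moved both ways, with COX1 from 7006 to 2408 CPM and mt-Rnr2 from 8667 to 11753. Their relation to the lists that fell was not tested.

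Of the 3606 genes measured in all 3 pairs, 0 were past 2-fold higher in each and 3 were lower in each. Cxcl10, an interferon-induced chemokine, had log2 ratios of -2.83, -1.26 and -3.32 at 2d_4h, 4d_4h and 4d_24h (the last with 2 UMIs in 2 cells in TOE and an interval of -6.49 to -1.54), where monocytes had -0.24, -0.21 and -3.44, but at 4d_4h it was at 0.085 without the members rich in RNA of other lineages. Fstl3, a binding protein of activins, had -2.04, -1.10 and -2.46, the last with 5 UMIs in 3 TOE cells. Magi1, a scaffold protein of cell junctions, had -2.13, -1.18 and -1.15 and was found in 42 TO and 15 TOE cells at 2d_4h and in 4 TOE cells at 4d_24h. Each pair has its own 2 libraries, so no sample is shared between these ratios.

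The 3 pairs were then tested together, with pair as a block, in edgeR's quasi-likelihood test, a comparison chosen after the data were seen. Its 6 libraries leave 2 residual degrees of freedom, and it looks for a difference of like size at all 3 times. The TOE library of the 2d_4h pair was taken before the day 4 session, those of the other pairs after it. Of 8926 genes tested, 0 were higher in TOE (0%) and 0 lower (0%) after adjustment, with 205 higher and 337 lower at an unadjusted p under 0.05, and DESeq2 called 1 higher and 0 lower. The smallest adjusted p by edgeR was 0.55, that of Thbs1, thrombospondin 1, and of Mmp8, a neutrophil collagenase. Thbs1 had 3.49, 1.28 and 1.20 CPM in TO and 29.2, 22.8 and 93.0 in TOE at 2d_4h, 4d_4h and 4d_24h (log2 difference 4.19 ± 0.57) and was the gene called by DESeq2, but at 2d_4h its 20 UMIs in TOE were in 1 cell and at 4d_24h 94.1% of 17 were in 1 cell. Magi1, Fstl3 and Cxcl10 had log2 differences of -1.59 ± 0.27 (adjusted p = 0.58), -1.81 ± 0.31 (0.58) and -2.09 ± 0.41 (0.71).

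Without the 4d_24h pair, whose TOE library had 12 members, 18 of 9435 genes were higher (0.191%) and 29 lower (0.307%), with 1 residual degree of freedom left. RT1-A3 led these, at 66.4 and 92.9 CPM in TO and 359 and 302 in TOE (log2 difference 2.00, adjusted p = 4.9e-04), while at 4d_24h it had 344 CPM in TO and 93.0 in TOE (7 cells). RT1-Bb (2.64) and Oasl (1.25) were also higher, and Magi1 (-1.64), Fstl3 (-1.60), Cxcl10 (-1.75) and the neutrophil genes Mmp8 (-2.70) and Ngp (-1.53) were lower. Without the 2d_4h or the 4d_4h pair 0 genes were called in either direction, with 68 higher and 106 lower, and 182 higher and 309 lower, at an unadjusted p under 0.05.

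**Figure D5:**
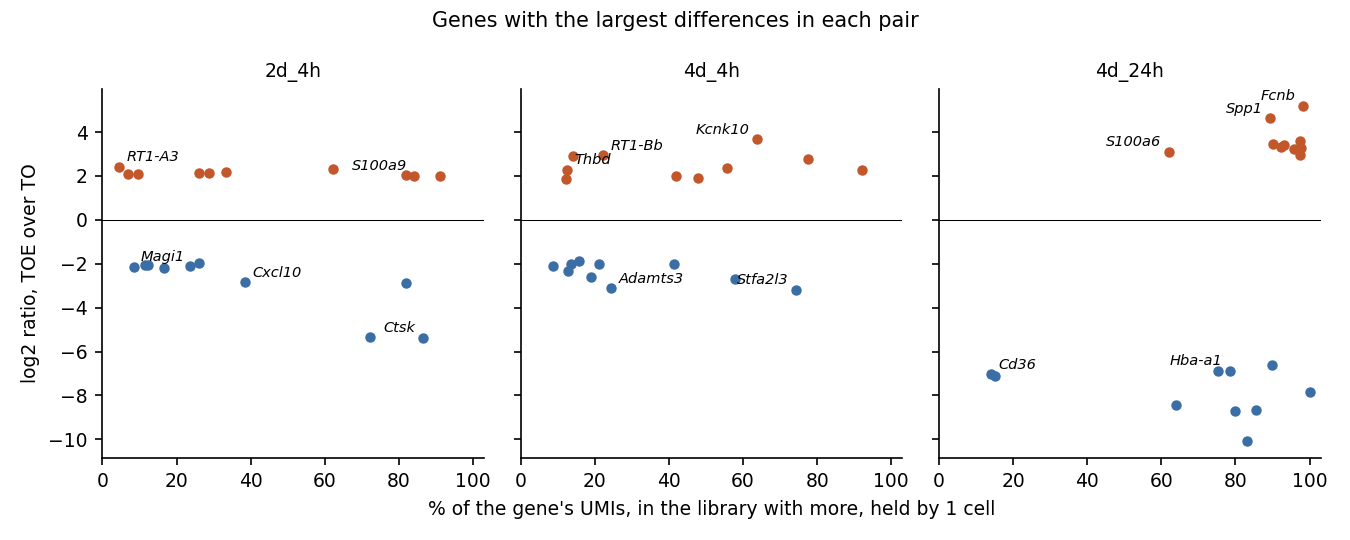
Log2 ratio of TOE over TO (y axis) against the percent of the gene's UMIs that 1 cell held in the library with more (x axis), for the 10 genes with the largest differences in each direction (orange higher, blue lower), 1 panel per pair, with the prior of 0.5 UMI standing in for counts of 0. In the 4d_24h pair all 10 higher genes lie above 50%, against 4 in the 2d_4h pair and 4 in the 4d_4h pair. Of the 10 lower genes, 8 lie above 50% in the 4d_24h pair, 3 in the 2d_4h pair and 2 in the 4d_4h pair.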

How the data were processed

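The deposited files hold raw UMI counts per gene and cell barcode, which the authors made with Cell Ranger 9.0.0 (the submitters' processing notes also name Seurat, R 4.0.3 and the builds mRatBN7.2 and GRCh38); the counts were used as deposited, for 41801 listed genes. Members were chosen by the rule given above, and the rule, the members and all gene lists were chosen with earlier results of these data known. Doublets were scored with Scrublet in scanpy 1.11.5 within each library (expected rate 8%) and members with scores of at least 0.25 were kept, with an alternative without them. Members were clustered with scanpy (2000 variable genes, 30 components, 15 neighbours, Leiden resolution 0.5).

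For the comparisons with monocytes and dendritic cells, counts were summed per library and cell type and fitted in edgeR 4.0.16 (R 4.3.3) with library and cell type as terms, filterByExpr, TMM factors, the quasi-likelihood test and Benjamini-Hochberg adjustment at 0.05. Conventional dendritic cells had at least 2 UMIs of Flt3, Clec9a, Xcr1 and Zbtb46, at least 50 UMIs per 10000 of Cd74, RT1-Da, RT1-Db1, RT1-Ba and RT1-Bb, no Siglech, Cd79a or Cd79b UMI and under 10 C1q UMIs per 10000. The pairs were compared by CPM and log2 ratios with a prior of 0.5 UMI over genes with at least 50 UMIs, with exact Poisson or Clopper-Pearson intervals and no test. Added after the data were seen, the 3 pairs were fitted together in edgeR with pair and shock wave as terms. These steps were tested on simulated data. The simulated counts were drawn per library and not per cell, so genes with most of their UMIs in 1 cell were not covered.

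Genes were named by a rule: the markers, the 15 largest rises and falls with at least 100 UMIs for each cell type comparison, the 10 largest for each pair, genes past 2-fold in all 3 pairs, and from each list up to 5 genes with the most UMIs and up to 4 with the largest difference. Other genes named, mostly members of the lists that did not move or moved against the rest, were chosen after their values were seen. A few genes that the rule or the lists hold are not reported here. Alternatives covered the limits of the rule, doublet scores, RNA of other lineages, depth, filters, scaling, the library term, the cell types fitted, each library in turn and DESeq2 1.42.0. The sequencing depth of the members limits the precision, most of all in the library with 12 members.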

Additional observations from a re-analysis of the deposited data

Results flagged for a closer look

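The genes below were past 2-fold in opposite directions in different pairs; these differences between pairs were not tested, and log2 ratios are TOE over TO. Cd5l, a scavenger protein, had the largest rise over monocytes among tested genes with at least 100 UMIs. It was at 1.78 at 4d_4h and at -1.37 at 2d_4h. No cell held more than 14.6% of its UMIs in the library with more. RT1-A3, the class I gene, was at 2.42 at 2d_4h and 1.70 at 4d_4h and at -1.87 at 4d_24h, with at most 5.39% of its UMIs in 1 cell. Oasl, an interferon-induced gene, was at 1.43 at 2d_4h and 1.15 at 4d_4h and at -2.29 at 4d_24h (at most 23.8% in 1 cell). RT1-Ba, a class II chain, was at 1.22 at 2d_4h and -1.57 at 4d_24h (23.9%), and the chemokine Cxcl3 at 1.11 at 4d_4h and -1.79 at 4d_24h (28.6%).

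In the other 7 genes 1 cell held most of the UMIs in at least one of the pairs. Fibronectin, Fn1, was at 1.75 at 4d_24h and -1.28 at 2d_4h, with up to 70% of its UMIs in 1 cell. Nr4a1, an immediate-early receptor, was at 1.74 at 4d_24h, where 1 cell held 100% of its UMIs, and at -1.70 at 2d_4h. Hspb1, a small heat-shock protein, was at 1.64 at 2d_4h and at -2.53 or below at 4d_24h, a bound set by 3 UMIs because the 12 TOE members had 0 UMIs (94.9 CPM in TO, at least 5.78-fold lower in TOE, up to 89.9% in 1 cell). The neutrophil genes S100a9 (2.02 at 2d_4h, -1.0 at 4d_4h and -1.32 at 4d_24h; up to 84.2%), Np4 (1.15 at 2d_4h and -1.32 at 4d_4h; up to 62.8%) and LOC24906 (3.46 at 4d_24h and -1.12 at 4d_4h; up to 90.0%) followed, with Slpi, a protease inhibitor, at 2.20 at 2d_4h, 1.24 at 4d_4h and -3.64 at 4d_24h (up to 66.7%), the last with 1 UMI in TOE and an interval of -9.18 to -1.33.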

How the results depend on the processing

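Each condition has 1 library, so a single pair could not be tested. With the 3 paired conditions in 1 fit and pair as a block, 0 genes were higher and 0 lower; both counts were also 0 without the block (145 and 216 at an unadjusted p under 0.05) and without members rich in RNA of other lineages (185 and 311), DESeq2 gave 1 higher, and leaving out 1 pair gave 0 to 18 higher and 0 to 29 lower, the upper values without 4d_24h. Shares of C1q macrophages kept their order within each pair, with ratios of 0.678 to 0.877 at 2d_4h, 0.730 to 0.948 at 4d_4h and 0.123 to 0.167 at 4d_24h over the alternatives. Against monocytes (2486 higher and 2328 lower of 10538 genes), cells thinned to 2000 UMIs gave 1362 higher and 905 lower of 5201. No filter on low counts gave 3972 lower of 26468, no library term 1457 of 9057 and a fit of these cell types alone 4076 of 15424. Leaving out 1 library gave 2130 to 2493 higher and 1968 to 2535 lower of 9899 to 10883 genes, and DESeq2 3401 higher and 1979 lower of 16714. Against dendritic cells (2162 higher and 1509 lower of 10527 genes), thinning gave 1211 and 360 of 5193 and a fit of these cell types alone 1434 higher of 7092. Leaving out 1 library gave 1790 to 2085 higher and 1268 to 1637 lower of 9888 to 10872 genes, and DESeq2 2190 and 1560 of 14649. Counts of genes past 2-fold depended on the minimum of UMIs. With 20 they were 467 higher and 335 lower of 8144 at 2d_4h, 235 and 347 of 9816 at 4d_4h and 770 and 879 of 6720 at 4d_24h. With 100 they were 68 and 75 of 3226, 35 and 53 of 5066, and 91 and 278 of 1887. With the mean over cells, 228 were higher at 2d_4h, and 136 higher and 198 lower at 4d_4h. At 4d_24h, the number higher was 148 of 3252 genes with at least 20 C1q UMIs per 10000 and 141 of 3288 without high doublet scores. It was 125 of 2283 without members rich in RNA of other lineages, 146 of 3247 without the largest member and 112 of 3671 with TMM, which gave 781 lower.

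The direction turned in 5 values of named genes: at 2d_4h Camp was at -1.48 and S100a9 at -0.66 when receptor UMIs were counted without Csf1r, and Camp at -0.24 without members rich in RNA of other lineages; without those members Cxcl10 at 4d_4h was at 0.085; and with at least 5 C1q UMIs per 10000 Ahsp at 4d_24h was at 1.17. Camp was itself among the markers used to remove the members rich in RNA of other lineages. The causes of these turns were not tested. Over all genes of the lists, the direction of a called difference turned without the members rich in RNA of other lineages for 20 genes against monocytes and 11 against dendritic cells, with thinning for 1 and 5, and against dendritic cells for 1 gene without high doublet scores and 1 without TOE_2d_4h. The lists include the markers used to remove the members rich in RNA of other lineages. Over the other values of single genes, 6843 comparisons with an alternative were counted as kept, 64 moved, 73 lost the call and 52 gained it. In the cell type comparisons, a kept value stayed on the same side of the threshold, with no turn of a called difference. In the pairs, a kept ratio lay within the counting interval of the main ratio, and a moved one lay outside it in the same direction. The 12 members of TOE_4d_24h, 98 dendritic cells and 1 library per condition limit what these data can show.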

Other observations

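Osteoclast markers, a list that shares genes with those described above, Acp5 among them, rose in 6 of 9 genes tested against monocytes and fell in 1. Their summed level was 523 to 1013 CPM in the C1q macrophages and 106 to 443 in monocytes. Acp5, the tartrate-resistant acid phosphatase that resident macrophages also express, had 189 to 432 CPM in the members and 14.6 to 74.9 in monocytes (log2 difference 3.22 ± 0.21, adjusted p = 2.2e-12, edgeR's quasi-likelihood test). Ctsk, the collagen-degrading cathepsin of osteoclasts, ranged from 1.46 CPM (1 UMI) in TOE_2d_4h to 240 in TOE_2d_24h, where 56.4% of 642 UMIs were in 1 cell, against 4.91 to 181 in monocytes, and did not pass the test at 0.62 ± 0.27 (adjusted p = 0.065).

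TOE_2d_24h, which had no TO partner here, held the most members and the highest level of several genes. Apoe had 16957 CPM, Trem2 590 and Timp2, an inhibitor of matrix proteases, 860, and Il10, at a median of 19.7 CPM over the 8 libraries, had 87.8, close to the 84.4 of TO_2d_0h. Those values stand beside 42.9% of its members in cluster 4, which was led by neutrophil markers, and their relation was not tested.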
